A study of Mus musculus with 6 samples.

Results

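The DNA replication genes described here are 43 genes that encode the proteins that load, fire and copy from replication origins, and the enzymes that supply the building blocks of DNA. The rule goes by gene name: every probe set whose 1 gene symbol in the platform's annotation was on the list counted as a member. All 43 genes were found, on 96 of 45101 probe sets, and 86 of these probe sets passed the filter on low signal, a mean log2 intensity of at least 4 over the 6 arrays. Each gene kept at least 1 probe set, so 43 of 13815 tested genes are members. A gene is represented by its probe set with the highest mean, and its other probe sets are given where they differ.

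The cells were mouse embryonic stem cells of the line 27H10 (27H in the sample titles), which is Dicer -/-, kept undifferentiated and read 24 h after transfection. Dicer cuts microRNA precursors, so the controls as well as the treated cells lacked their own mature microRNAs. The 3 control samples received siRL, an siRNA to Renilla luciferase, and the other 3 received microRNA mimics of the miR-290 cluster. The labels name 1 line, so clonal features of it are shared by all samples. They do not say whether the replicates were separate cultures. The p-values therefore set the group difference against a spread among these replicates that may be only technical.

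Replication begins when the origin recognition complex, with Cdc6 and Cdt1, loads the ring of Mcm2 to Mcm7 onto DNA in G1. The kinase Cdc7 with Dbf4 and the cyclin-dependent kinases then turn the ring into a running helicase with Cdc45 and the GINS complex, after which primase, DNA polymerases, the sliding clamp and its loader follow. Many of these genes are transcribed by E2F factors as cells enter S phase, and embryonic stem cells spend much of their cycle in S phase. MicroRNAs of the miR-290 cluster are known to help such cells pass from G1 into S phase. In bulk RNA, a larger share of cells in S phase and more RNA per cell cannot be told apart.

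The 3′ arms of the cluster carry the seed for which it is known, and those of the plus strand that the sequence table held are shown to say what the treatment refers to. The labels name the cluster and not the separate mimics, so which of them were transfected is not known here. The sequences below are RefSeq's on GRCm38.p6, 5′ to 3′, with the seed (bases 2 to 8) in capitals.
mmu-miR-290a-3p: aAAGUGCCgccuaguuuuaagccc
mmu-miR-291a-3p: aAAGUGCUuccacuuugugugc
mmu-miR-291b-3p: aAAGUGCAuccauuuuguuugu
mmu-miR-293-3p: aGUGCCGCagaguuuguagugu
mmu-miR-294-3p: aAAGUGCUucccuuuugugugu
mmu-miR-295-3p: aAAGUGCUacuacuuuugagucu
Of these, miR-291a-3p, miR-294-3p and miR-295-3p share 1 seed, and miR-290a-3p and miR-291b-3p differ from it in the last base of the seed. The seed of miR-293-3p is a different one.

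The replication genes differed little between the groups, and most of the differences were small and upward. None of the 43 genes passed limma's test in either direction (Benjamini-Hochberg, threshold 0.05), where 0.456% of all tested genes were called higher and 1.38% lower. The smallest adjusted p of a member was 0.061, for Orc1. At an unadjusted p under 0.05, 6 members (14%) were higher and 0 were lower, against 9.99% and 14.5% of all tested genes and 12.7% and 14.3% of the 4216 genes with a mean log2 at or over 10. The log2 difference, mimics minus control siRNA, was above 0 for 36 of the 43 (83.7%), against 48% of all tested genes, and its median was 0.13 against −0.01. Members ranged from −0.18 for Pola1 to 0.49 for Orc1. The plot of differences with their intervals shows this by role.

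**Figure D1:**
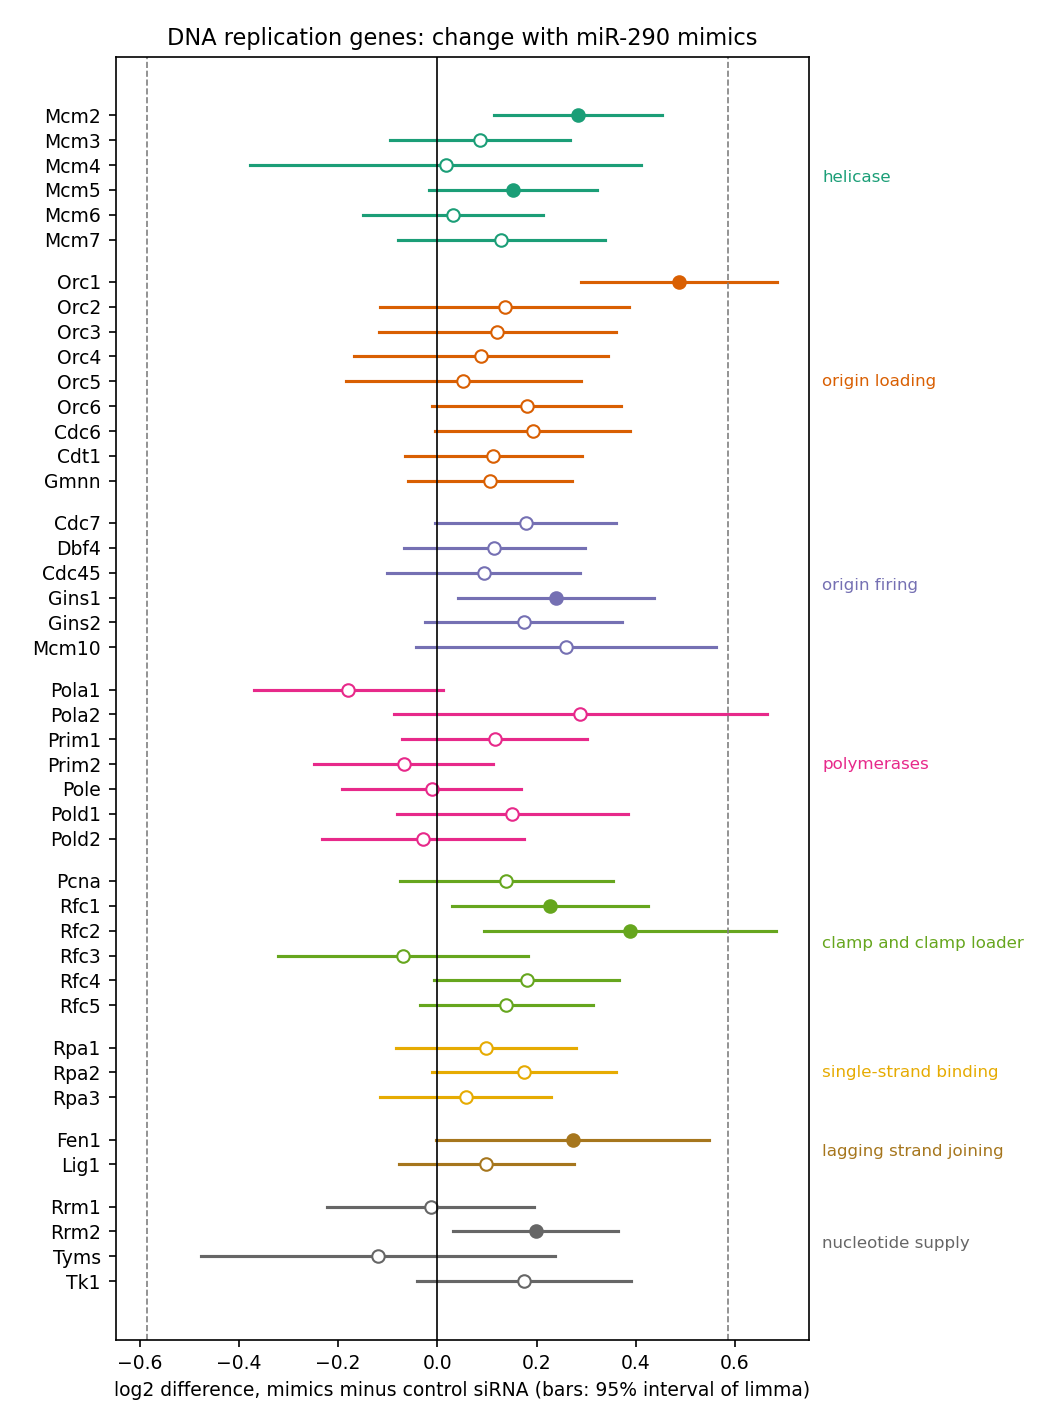
Each point is the log2 difference of 1 DNA replication gene, mimics minus control siRNA (n = 3 arrays each), and each bar is limma's 95% interval; colours mark roles, dashed lines mark a change of 1.5-fold, and filled points passed the test with the level-dependent robust prior. Points lie to the right of 0 for 36 of 43 genes, and 40 of the 43 intervals stay within the dashed lines.

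The intervals of these genes were narrow. For 40 of 43 members (93%) limma's 95% interval lay within a change of 1.5-fold in either direction, which 50.6% of all tested genes and 88.6% of those with a mean log2 at or over 10 reached. The exceptions were Orc1, Rfc2 and Pola2, whose intervals reached up to 1.61-fold, 1.61-fold and 1.58-fold. Bright probe sets have small errors here, and 39 of the 43 members have a mean log2 of at least 10, so values for the 4216 genes at that level, called bright genes below, are given beside those for all genes.

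The groups did not overlap for many members. For 25 (58.1%), all 3 mimic arrays lay above all 3 control arrays, and for 2 (4.65%), Pola1 and Prim2, all 3 lay below. Of all tested genes 16.2% and 19.3% did so, and of the 4216 bright genes 26.5% and 22.7%. In that bright range 24 of 39 members (61.5%) lay wholly above, and 53.4% of all genes there had a difference above 0. The median deviation of the 43 members from their control means was 0.10, 0.17 and 0.11 on the 3 mimic arrays and lay between −0.02 and 0.03 on the control arrays. Of the 43, 37, 37 and 36 were above the control mean on the mimic arrays, and 14, 30 and 21 on the control arrays. No mimic array carried the shift alone, and the control arrays also differed among themselves in this count. Over all genes the same medians lay between −0.01 and 0.01 on the 6 arrays.

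A second setting of the test called some members. When limma's prior variance was allowed to vary with brightness and was estimated robustly (the level-dependent robust prior), 8 of 43 members (18.6%) were called higher and 0 lower, against 6.2% and 9.43% of all tested genes and 12.3% higher among the 4216 bright genes. They were Mcm2, Mcm5, Orc1, Gins1, Rfc1, Rfc2, Fen1 and Rrm2. Counted over the 86 member probe sets, 13 (15.1%) were called higher and 0 lower, against 4.73% and 6.56% of all probe sets. Leaving out 1 array at a time under that prior, 3 to 11 of the 43 members were called, while 3.37% to 5.63% of all genes were called higher. The share of the bright genes, which was 12.3% with all 6 arrays, is not given for these leave-outs. Mcm2, Orc1 and Rrm2 were called each time, Gins1 and Rfc2 in 3 of 6 cases, Fen1 in 2, and Mcm5 and Rfc1 in 1. The members called without control replicate 3 and without mimic replicate 2 were these 3 alone. Mcm2 and Orc1 also passed the constant prior when the filter was raised to a mean log2 of 6 (limma adjusted p = 0.0362 and 0.0152). As 2 of 43 members, they make up a share close to that of all genes called higher there, 4.95%.

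**Figure D2:**
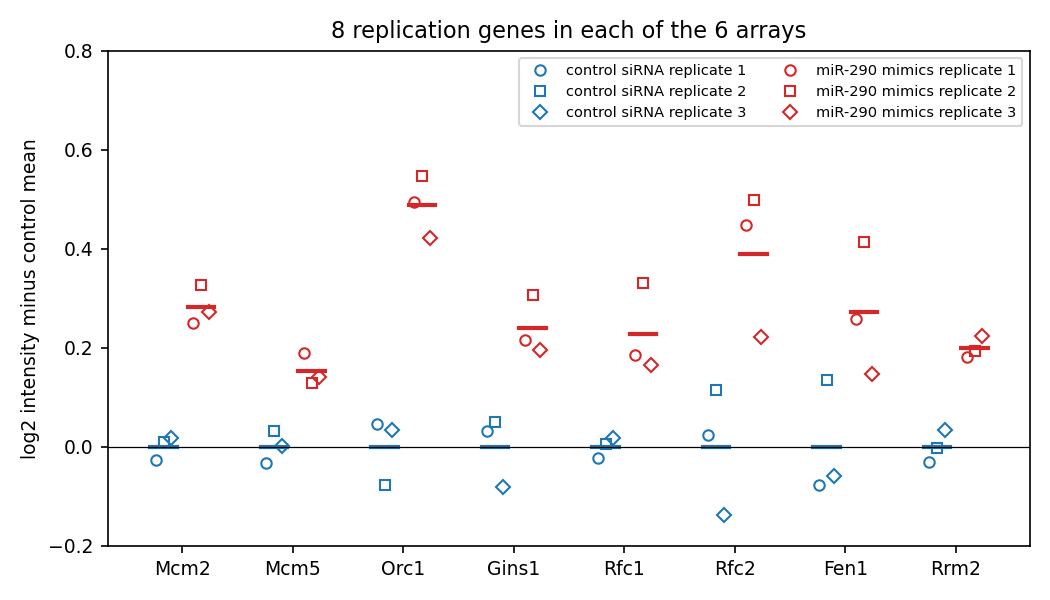
Log2 intensity minus the mean of the control arrays for the 8 members that passed the level-dependent robust prior, with 1 symbol per array and a short line at each group's mean (n = 3). For all 8 genes the 3 mimic arrays lie above the 3 control arrays, with the widest separation for Orc1 and the narrowest for Fen1.

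Of the helicase subunits, Mcm2 had the largest difference. Its intensities were 7353, 7544 and 7580.5 on the control arrays and 8906, 9395 and 9048 on the mimic arrays, a 1.22-fold difference (log2 0.28 ± 0.067 SE, 95% interval 0.11 to 0.45, limma adjusted p = 0.107, and 0.00234 with the level-dependent robust prior). Every mimic array exceeded every control array. Mcm5 gave 12564, 13145 and 12860.1 against 14654, 14057 and 14166.5 (log2 0.15 ± 0.067 SE, limma adjusted p = 0.289 and 0.0376). Mcm7 gave 14712, 16896 and 15906 against 17692, 17371 and 16834, so that 1 mimic array lay below 1 control array (log2 0.13, limma adjusted p = 0.442).

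The remaining subunits of the helicase were closer to 0. Mcm3 differed by 0.09, with groups that did not overlap, and Mcm6 and Mcm4 by 0.03 and 0.02, with groups that did. All 6 subunits had a difference above 0 on the values as deposited, but Mcm4 turned to −0.012 with median centring and to −0.025 with quantile normalization, where Mcm6 also turned to −0.012. The 6 proteins form 1 ring in equal numbers, and their transcripts differed by a median of 0.11 on the log2 scale.

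The 9 genes of origin loading all had differences above 0, with a median of 0.12. Orc1, the subunit of the origin recognition complex whose amount is known to follow the cell cycle, had the largest difference of the 43 members. Its intensities were 893, 819.6 and 885 on the control arrays and 1218, 1264 and 1159 on the mimic arrays, 1.40-fold higher (log2 0.49 ± 0.078 SE, 95% interval 0.29 to 0.68, limma adjusted p = 0.061, and 0.00186 with the level-dependent robust prior). All its mimic arrays lay above its control arrays. The second, dimmer Orc1 probe set gave 190.0, 183 and 216 against 196, 169 and 218, a difference of −0.02, so the difference in Orc1 rests on 1 of its 2 probe sets.

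The other subunits of the complex differed less. Orc6 gave 3695, 3562 and 3376 on the control arrays and 3926, 4177 and 3942 on the mimic arrays (log2 0.18 ± 0.075 SE, limma adjusted p = 0.271), without overlap. Orc2, Orc3, Orc4 and Orc5 differed by 0.14, 0.12, 0.09 and 0.05, and their groups overlapped.

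Cdc6 and Cdt1, the loading factors that bring the Mcm ring to the complex, and Gmnn, the geminin that blocks Cdt1 after licensing, had differences of 0.11 to 0.19. Cdc6 gave 2164, 2006 and 2245 against 2377, 2439 and 2508 (log2 0.19 ± 0.078 SE, limma adjusted p = 0.258). Cdt1 gave 11637, 12571 and 12069.9 against 13129, 12759 and 13324 (log2 0.11 ± 0.071 SE, limma adjusted p = 0.435), and Gmnn differed by 0.11. In all 3 genes the mimic arrays lay above the control arrays, as for 16.2% of all tested genes and 26.5% of the bright genes. None of the 3 passed either setting on the probe set that stands for the gene. The dimmer Cdt1 probe set, at 0.19, passed with the level-dependent robust prior (limma adjusted p = 0.0427).

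The genes of origin firing all had differences above 0 as well, with a median of 0.18 over the 6. In 5 of them the mimic arrays lay wholly above, against 16.2% of all tested genes and 26.5% of the bright genes. Gins1, a subunit of the GINS complex of the running helicase, gave 4246, 4301 and 3928 on the control arrays and 4827, 5138 and 4760.2 on the mimic arrays (log2 0.24 ± 0.078 SE, limma adjusted p = 0.18, and 0.0181 with the level-dependent robust prior). Mcm10, which helps to start the helicase, gave 1519, 1669 and 1743 against 1755, 2233 and 1934 (log2 0.26 ± 0.12 SE, limma adjusted p = 0.308). The mimic arrays for Mcm10 spread widely, and the lowest of them lay just above the highest control array.

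In both genes of the firing kinase the mimic arrays lay above the control arrays. Dbf4, its regulatory subunit, gave 4639, 4307 and 4545 against 4710.1, 4988 and 4909 (log2 0.11 ± 0.072 SE, limma adjusted p = 0.435), and Cdc7, the catalytic subunit, differed by 0.18. Gins2, a further GINS subunit, differed by 0.17. Cdc45, which joins GINS in the helicase, differed by 0.09 and was the member of this group whose arrays overlapped.

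Of the 7 polymerase genes, 3 had a difference above 0 and 4 below, with a median of −0.01. No 95% interval among the 7 excluded 0, and whether this group differs from the other roles was not tested. Pola1, the catalytic subunit of the polymerase that extends primers, had the lowest value of the 43 members, with 1738, 1797 and 1762 against 1633, 1582 and 1468 (log2 −0.18 ± 0.075 SE, 95% interval −0.37 to 0.01, limma adjusted p = 0.273). All its mimic arrays lay below its control arrays. Pola2, the accessory subunit of the same enzyme, had the opposite sign, with 478, 502 and 488 against 485, 687 and 641 (log2 0.29 ± 0.15 SE, limma adjusted p = 0.354). For Pola2, mimic replicate 1 lay within the control range.

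The primase genes, whose products bind the same polymerase, also had opposite signs. Prim1, the catalytic subunit, gave 5336, 5205 and 4991 against 5386, 5844 and 5601 (log2 0.12 ± 0.074 SE, limma adjusted p = 0.441), and Prim2 differed by −0.07 with mimic arrays below the control arrays. Neither passed the test, and whether the members of the complex differ from each other was not tested. Pole, the catalytic subunit of the leading strand polymerase, differed by −0.01, and Pold1 and Pold2, of the lagging strand polymerase, by 0.15 and −0.03. The sign for Pole turned to 0.028 with quantile normalization.

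Among the clamp and its loader, Rfc2 and Rfc1 differed most. Rfc2 gave 1996, 2124 and 1783 on the control arrays and 2678, 2772 and 2288 on the mimic arrays, 1.31-fold higher (log2 0.39 ± 0.12 SE, 95% interval 0.10 to 0.68, limma adjusted p = 0.158, and 0.0129 with the level-dependent robust prior). Rfc1, the large subunit of the loader, gave 2513, 2562 and 2584 against 2903, 3211 and 2863 (log2 0.23 ± 0.078 SE, limma adjusted p = 0.199 and 0.0326). In both genes the groups did not overlap. A second Rfc2 probe set differed by 0.27, and the dimmest one by 0.02, with overlapping groups.

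Pcna, the sliding clamp, gave 21334.5, 24332 and 22372 against 25516, 25588 and 23754.5, so that its groups overlapped (log2 0.14 ± 0.085 SE, limma adjusted p = 0.424). Rfc4 gave 3847, 3583 and 3719 against 4165, 4393 and 4073 without overlap (log2 0.18 ± 0.073 SE, limma adjusted p = 0.262). Rfc5 differed by 0.14, and Rfc3 was the loader subunit with a difference below 0, at −0.07.

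The 3 genes of RPA, the complex that coats unwound DNA, had mimic arrays above control arrays throughout. So did 16.2% of all tested genes and 26.5% of the bright genes. Rpa1 gave 16515, 17931 and 17055 on the control arrays and 18869, 18244 and 17984 on the mimic arrays (log2 0.10 ± 0.072 SE, limma adjusted p = 0.502). Rpa2 and Rpa3 differed by 0.18 and 0.06. None of the 3 RPA genes passed either setting on the probe set that stands for the gene. The dimmer of the 2 Rpa2 probe sets, at 0.34, passed with the level-dependent robust prior (limma adjusted p = 0.00839).

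Of the genes that finish the lagging strand, Fen1, the nuclease that removes the ends of primers, gave 5323, 6167 and 5390 against 6715, 7473 and 6215 (log2 0.27 ± 0.11 SE, limma adjusted p = 0.255, and 0.0372 with the level-dependent robust prior). The groups were close, with control replicate 2 just under mimic replicate 3. Lig1, the ligase that seals the fragments, differed by 0.10, without overlap.

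The supply of deoxynucleotides depends on ribonucleotide reductase, whose small subunit Rrm2 is known to be made in S phase and whose large subunit is Rrm1. Rrm2 gave 9721, 9913 and 10160.4 on the control arrays and 11256, 11346 and 11590.0 on the mimic arrays (log2 0.20 ± 0.066 SE, 95% interval 0.03 to 0.36, limma adjusted p = 0.186, and 0.0117 with the level-dependent robust prior). Its groups did not overlap, and its other probe sets differed by 0.22 and 0.35. Rrm1 differed by −0.01, with overlapping groups. Tk1, the thymidine kinase of the salvage route, differed by 0.17.

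Tyms, which makes thymidylate, was dim on both of its tested probe sets. Its brighter tested probe set gave 77.7, 77.1 and 68.7 against 76.0, 56.9 and 74.2, and the other lay between 5.38 and 43.4 on the 6 arrays. The differences of −0.12 and 0.45 had 95% intervals that crossed 0, and the groups overlapped on both probe sets.

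For 5 members the probe sets differed among themselves by more than 0.5 on the log2 scale, in each case through a dim one. Besides Orc1 and Tyms, these were Mcm5, Cdc45 and Orc4. The dimmest Mcm5 probe set, at 182, 151 and 145 against 218, 286 and 269, differed by 0.69, while the other 2 gave 0.15 and 0.14. A second one for Cdc45, with 43.2, 4.16 and 20.4 against 56.3, 52.9 and 56.2, differed by 1.84 with a 95% interval from −0.36 to 4.03. The 4 Orc4 probe sets gave 0.09, −0.15, −0.02 and 0.56, the last one below an intensity of 100 on every array. Probe sets whose names end in _s_at or _x_at can bind more than 1 transcript, and such a probe set stands for Mcm2, Mcm3, Mcm5, Mcm7, Pold1, Fen1 and Rrm2. With another probe set in their place wherever the gene has 1, Mcm2 differed by 0.20 and Rrm2 by 0.22, and the median of the members was 0.14. With these probe sets the level-dependent robust prior called 5 of 43 members higher and 0 lower in place of 8 and 0. The share of all genes called with this choice is not given here. With the brightest probe sets, 6.2% of all tested genes and 12.3% of the bright genes were called higher. Orc1, Gins1, Rfc1, Rfc2 and Rrm2 were called, while the calls of Mcm2, Mcm5 and Fen1 were lost (limma adjusted p = 0.0695, 0.221 and 0.15).

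**Figure D3:**
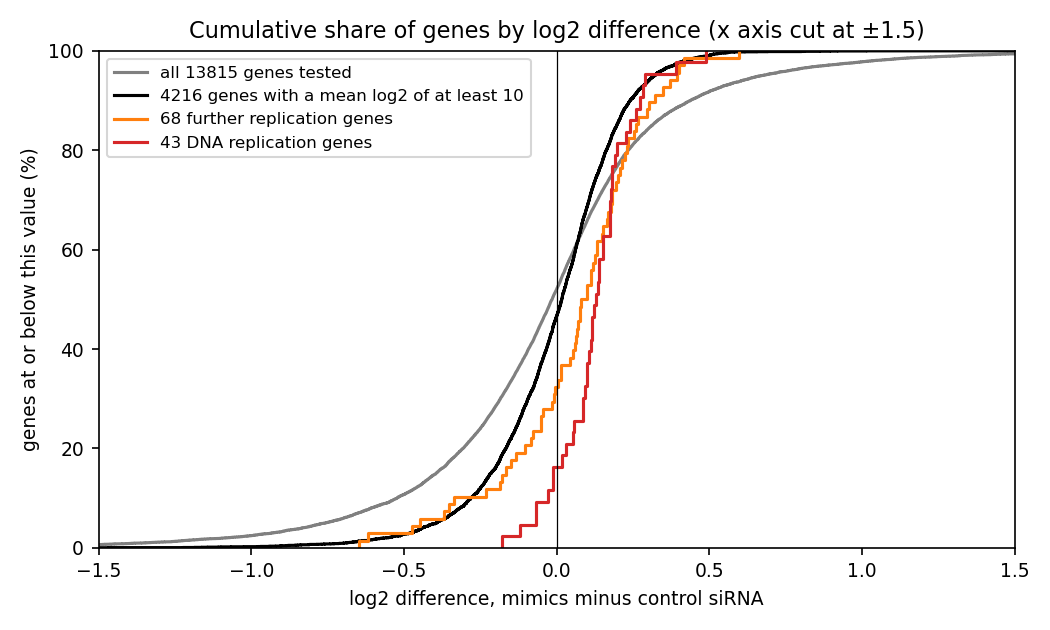
Cumulative share of genes (%) against their log2 difference, mimics minus control siRNA, for the 43 DNA replication genes, 68 further replication genes, the 4216 bright genes (mean log2 at or over 10) and all 13815 tested genes. The curve of the replication genes crosses 0 lowest, since 7 of 43 are below it, and it lies to the right of the others in its middle.

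The promoters of the members carry E2F motifs more often than promoters do in general. In RefSeq windows of 300 bases on GRCm38.p6 (250 before to 50 after a gene's start), 36 members had at least 1 window, 45 in all. Exact matches on either strand to TTTGGCGC, TTTCGCGC, TTTGGCGG, TTTCCCGC or TTTGGGAA were counted, with overlapping matches allowed. At least 1 was found for 16 of the 36 genes (44.4%), against 4.69% of the genes in the whole table, and in 35.6% of the 45 windows against 4.09% of all windows. The trait is not particular to the members: of the further replication genes described below, 26.7% of 60 genes and 25.8% of 66 windows held a match. TTTCGCGC was found in 13.3% of member windows against 0.323% of all windows, and TTTGGCGC in 11.1% against 0.514%. TTTGGCGG was found in 8.89% against 0.56%, TTTCCCGC in 13.3% against 1.07%, and TTTGGGAA in 2.22% against 1.77%. In windows of the further replication genes TTTCGCGC was found in 3.03%, TTTGGCGC and TTTGGCGG in 6.06% each, TTTCCCGC in 13.6% and TTTGGGAA in 0%. These are matches of letters and not measured binding, and the genes were listed for their role, which is known to involve E2F.

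Of the 8 members that passed the level-dependent robust prior, 6 had a window, and 2 of these 6 (33.3%) held a match, Orc1 and Mcm5. The windows of Mcm2, Rfc1, Fen1 and Rrm2 held none. The 200 bases before the start are shown for Orc1 and Mcm5 as the passing members with a match, and for Mcm6, which has more matches and a difference near 0. Matches to the E2F motifs are in capitals, and overlapping matches run together.
Orc1, chr4:108579254-108579453, plus strand: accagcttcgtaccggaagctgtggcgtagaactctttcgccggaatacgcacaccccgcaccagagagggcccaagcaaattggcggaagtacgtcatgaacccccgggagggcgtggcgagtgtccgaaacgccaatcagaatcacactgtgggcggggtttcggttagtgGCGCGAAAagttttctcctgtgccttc
Mcm5, chr8:75109309-75109508, plus strand: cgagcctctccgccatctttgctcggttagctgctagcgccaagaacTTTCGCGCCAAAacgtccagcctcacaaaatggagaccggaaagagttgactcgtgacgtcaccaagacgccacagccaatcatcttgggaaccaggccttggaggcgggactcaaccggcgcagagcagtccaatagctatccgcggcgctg
Mcm6, chr1:128359706-128359905, minus strand: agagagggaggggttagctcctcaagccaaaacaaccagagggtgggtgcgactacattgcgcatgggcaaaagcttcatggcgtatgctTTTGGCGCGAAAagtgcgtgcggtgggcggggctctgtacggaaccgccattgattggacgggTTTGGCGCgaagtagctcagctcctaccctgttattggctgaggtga
Orc1 holds 1 match, Mcm5 holds 2 that overlap and Mcm6 holds 3, of which 2 overlap.

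The 16 members with a match had a median difference of 0.12, with 14 above 0, 7 whose mimic arrays all lay above the control arrays and 2 that passed the level-dependent robust prior. The 20 without a match had a median of 0.16, with 17 above 0, 14 wholly above and 4 that passed. Of all tested genes 16.2% lay wholly above and 6.2% passed as higher, and of the bright genes 26.5% and 12.3%. The difference between the members with and without a match was not tested. Of other boxes, CCAAT was in 53.3% of member windows against 37.4% of all windows and GGGCGG in 71.1% against 35.7%, while TTTGAA was in 15.6% against 17.9% and TTCGAA in 4.44% against 1.56%. Windows of the further replication genes held CCAAT in 43.9%, GGGCGG in 75.8%, TTTGAA in 18.2% and TTCGAA in 3.03%. The E2F matches can overlap GGGCGG and CCAAT.

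The rest of the replication machinery, taken as 6 lists of 72 genes of which 68 were measured, showed both directions. None passed the constant prior, in either direction. At an unadjusted p under 0.05, 13 were higher and 7 lower, where 9.99% and 14.5% of all tested genes and 12.7% and 14.3% of the bright genes were. With the level-dependent robust prior 9 (13.2%) were called higher and 7 (10.3%) lower, against 6.2% and 9.43% of all tested genes and 12.3% and 13% of the bright genes, so the shares are close to those of bright genes. The median difference was 0.09, and 46 of 68 (67.6%) were above 0, against 48% of all tested genes and 53.4% of the bright genes. The genes named below passed that prior alone and were picked after their values were seen.

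Of the 9 genes called higher, 4 were in the list of fork protection and checkpoint, which holds 14 of the 68 measured genes. Dut, which removes dUTP, gave 4425, 4530 and 4123 against 5774, 5861 and 5599, 1.32-fold higher (log2 0.40 ± 0.074 SE, limma adjusted p = 0.0725, and 0.000774 with the level-dependent robust prior). Dtymk, the kinase that follows thymidylate synthase, differed by 0.30, and its 3 probe sets were all called. In the list of further nucleotide supply 12 of 14 were above 0, against 48% of all tested genes and 53.4% of the bright genes. Pole2 and Pole4, accessory subunits of the leading strand polymerase whose catalytic subunit Pole differed by −0.01, differed by 0.42 and 0.30. Nasp, a chaperone of histones, differed by 0.39, and Timeless and Tipin, which form the fork protection complex, by 0.32 and 0.23. Rad1 and Rad9a, parts of the checkpoint clamp, differed by 0.37 and 0.60.

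Of the 7 genes called lower, 3 were in the list of licensing turnover and S phase kinase, which holds 10 genes. Rrm2b, the p53-dependent small subunit of ribonucleotide reductase, gave 459, 604 and 532 against 344, 354 and 335 (log2 −0.62 ± 0.12 SE, limma adjusted p = 0.0758, and 0.00573 with the level-dependent robust prior). Its next probe set differed by −0.74 and was also called. Dtl and Cul4a belong to the ubiquitin ligase that destroys Cdt1 in S phase. Dtl gave 2637, 2808 and 2757 against 1859.8, 2031 and 2023 (log2 −0.47 ± 0.076 SE, limma adjusted p = 0.0612 and 0.000662), and Cul4a differed by −0.65, on values that spread widely among the controls. The other Dtl probe sets, all dimmer, gave values on both sides of 0, and the mean over all of them was 0.10.

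Clspn, the adaptor of the checkpoint kinase Chek1, differed by −0.34 and was called, while Chek1 itself, also picked after its values were seen, differed by 0.08 and was not. Asf1b, a histone chaperone, differed by −0.23, and Top2b, a topoisomerase that is not confined to dividing cells, by −0.45. The last was Ccne1, cyclin E1, whose probe sets disagreed: the brighter one gave −0.37 and the other 0.39, and both were called. Of the licensing turnover and S phase kinase list 3 of 10 were above 0, the lowest share of the 6 lists, and of origin activation 12 of 13.

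**Figure D4:**
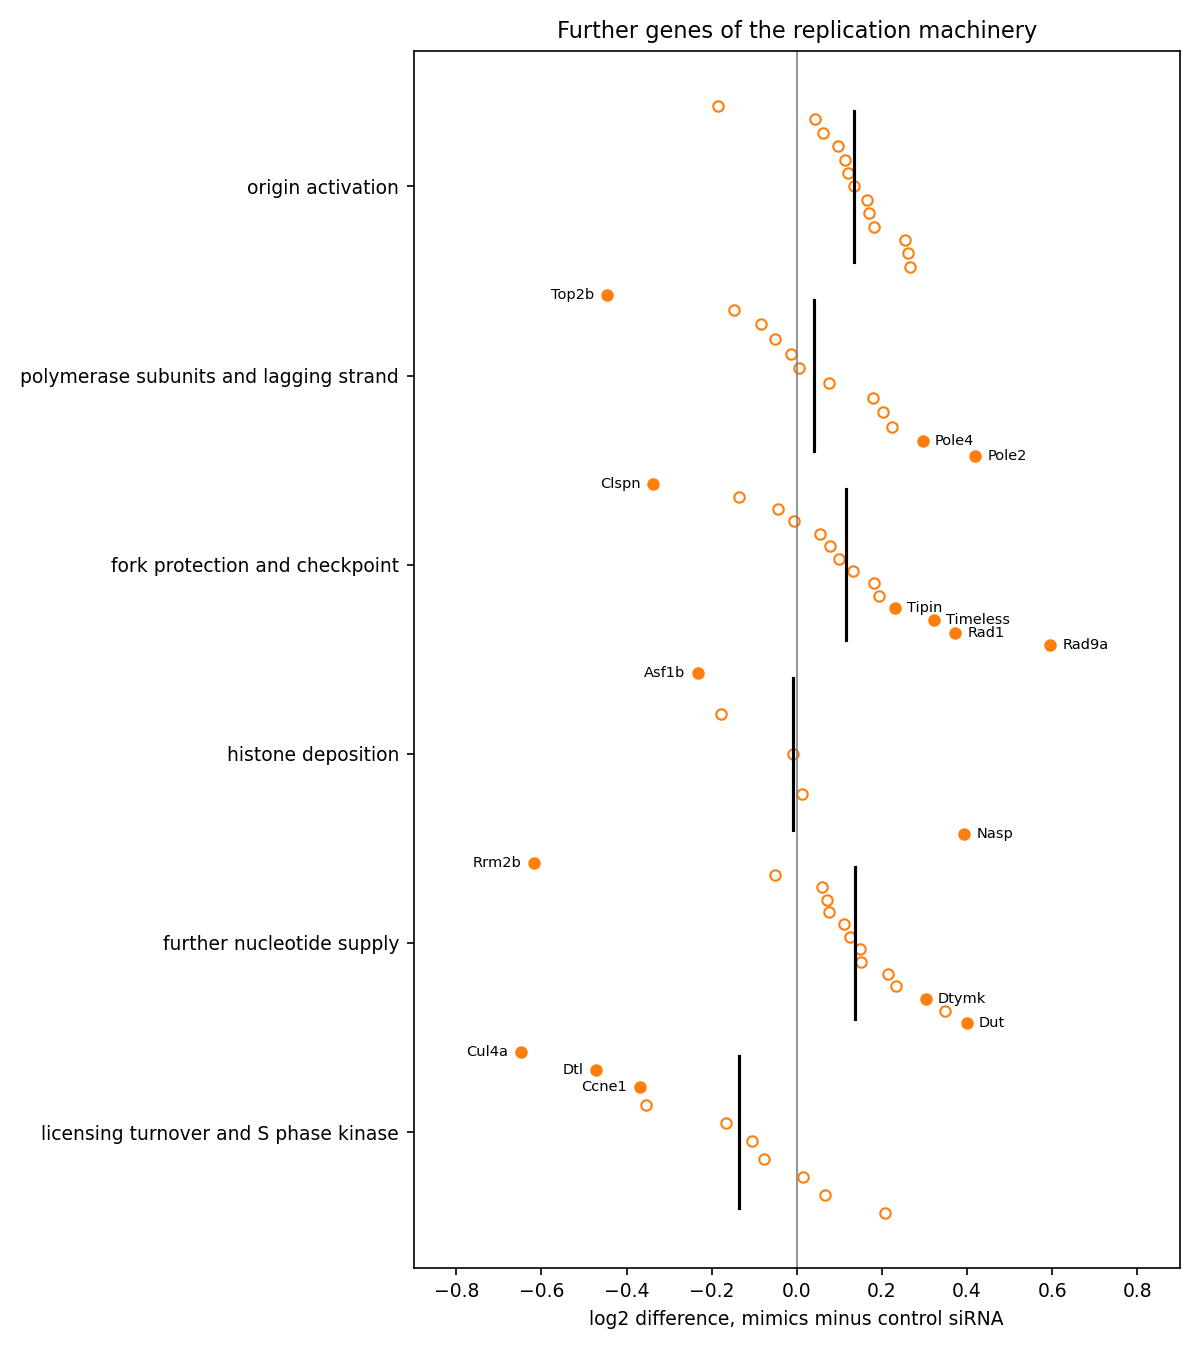
Log2 difference, mimics minus control siRNA (n = 3 arrays each), of 68 further replication genes in 6 lists; each point is 1 gene, a filled and named point passed the level-dependent robust prior, and the upright line is the list's median. The medians run from −0.14 for licensing turnover and S phase kinase to 0.14 for further nucleotide supply.

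Besides Tipin, the brightest gene of each of the 6 lists stood as follows. Rif1, which times origins, differed by 0.11, Top2a, the topoisomerase of dividing cells, by −0.08, and Supt16, of a histone chaperone, by −0.01. Paics, of purine synthesis, differed by 0.08 and Cul4b, a relative of Cul4a, by −0.11. None of these passed either setting.

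On the arrays as a whole, the mean without the lowest and highest 2% was 500.004 on each, median intensities lay between 41.7 and 44.9, and arrays correlated at 0.963 to 0.969 within and 0.959 to 0.964 between the groups on the log2 scale. All 6 stem cell markers listed (Pou5f1, Nanog, Sox2, Zfp42, Dppa5a and Esrrb) were measured, with summed intensities of 85160 to 93216 on the control arrays and 90105.5 to 95530.2 on the mimic arrays. The 8 fibroblast markers summed to 427 to 454 and 383 to 466, with 4 of them, Col1a1, Col1a2, Col3a1 and Postn, below the filter. The 5 trophectoderm markers summed to 3720 to 4092 and 2516 to 2629, which came from Krt8 and Krt18, while Cdx2 and Elf5 were below the filter. Krt8 and Krt18 fell, by 0.66 and 0.60 on the log2 scale (limma adjusted p = 0.0457 and 0.0416), as did the neural marker Sox1, by 0.95 (limma adjusted p = 0.0458). The other measured marker of each list did not fall: Eomes of trophectoderm differed by 0.007 and Pax6 of neural ectoderm by 0.08. With the level-dependent robust prior Krt8 and Krt18 were called lower and Sox1 was not. Of the 6 stem cell markers it called 1 higher and 0 lower, where 6.2% and 9.43% of all tested genes were. The differences of the stem cell markers ran from −0.05 for Nanog to 0.23 for Esrrb. Whether these differences have a part in the values of the replication genes was not tested. Endoderm (89.1 to 172 and 143 to 171) and mesoderm markers (102 to 215 and 112 to 146) were low on all arrays. The neural ectoderm markers summed to more, 633 to 706 and 655 to 709.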

How the data were processed

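Per the labels, total RNA became biotinylated cRNA for Affymetrix arrays, 1 per sample. The deposited values are linear intensities. The submitters' processing notes name GCRMA, which usually gives log2 values, while the scaling to an equal trimmed mean is that of other software, so the tool that made them is not settled here. Dim probe sets are hard to separate from background.

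The design had assumed log2 values; these being linear, they were log2-transformed without an offset and not normalized again. Of the probe sets, 64 controls and 15870 with a mean log2 under 4 were left out, which left 29167. A linear model with a constant prior (limma 3.58.1, R 4.3.3, 2-sided) was fitted to all 6 arrays without covariates, with Benjamini-Hochberg adjustment over all probe sets. Genes were named through the platform annotation; all 43 member symbols matched GRCm38.p6 by gene ID, with 0 changed. The tests were checked on simulated data. Of the 72 further genes 4 were not analysed here.

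Members and lists were chosen with earlier results of these data known. Values in all arrays are given for members that pass either prior, for the 6 others with the largest differences and for the brightest of each role. Members whose probe sets differ by over 0.5 are named with each value. Of each further list, up to 3 genes past the constant prior are named, or else the brightest. Titles number the replicates 1 to 3 in each group; same-numbered arrays did not deviate together (correlations of −0.006, 0.012 and 0.024), so no pairing was used. Alternatives were the prior, filter, offset, normalization, replicate block, arrays left out and the choice of probe set.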

Additional observations from a re-analysis of the deposited data

How the results depend on the processing

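The sign of 36 of the 43 differences was the same in every setting run, and the median of the members lay between 0.10 and 0.15. Of probe sets higher and probe sets lower there were 100 and 276 with the settings of the report, 1379 and 1914 with the level-dependent robust prior, 851 and 1522 with a filter at a mean log2 of 6, 186 and 442 with an offset of 16, 37 and 170 with median centring, and 0 and 0 without a filter. Without 1 array at a time there were 0 to 1 higher and 0 lower. The level-dependent robust prior called 8 members higher, and 9 further genes higher and 7 lower, where 6.2% and 9.43% of all genes were called. The filter at 6 called 2, 6 and 4, where 4.95% of all genes were called higher, a share close to that of the 2 members. The share called lower at that filter is not given here. Averaging the probe sets of each gene called 2 further genes higher, and the share of all genes there is not given here either. With the replicate block 0 probe sets were called in limma's test in either direction, while 5 members were higher at an unadjusted p under 0.05 (8.35% of all genes). That count was 3 without a filter (6.45%), 2 to 7 without 1 array (7.27% to 8.66%), 9 with averaged probe sets (10.2%), 13 with the filter at 6 (13.9%) and 26 with the level-dependent robust prior (13.7%).

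Some settings were chosen after seeing the data. Counting every member probe set, the level-dependent robust prior called 13 of 86 higher, against 4.73% of all probe sets. Without control replicate 1, 2 or 3 it called 5, 11 and 3 members higher, where 4.05%, 5.63% and 3.56% of all genes were. Without mimic replicate 1, 2 or 3 it called 5, 3 and 7 members higher, where 3.37%, 3.92% and 4.42% of all genes were. The shares of the bright genes called without 1 array are not given here. Leaving out _s_at and _x_at probe sets where the gene has another, it called 5, and the share of all genes there is not given here. The constant prior called none with that choice (5 higher at an unadjusted p under 0.05, 9.94% of all genes).

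Signs turned for Mcm4 with median centring (−0.012) and quantile normalization (−0.025), and with the latter for Mcm6 (−0.012) and Pole (0.028). Averaging probe sets turned Tyms (0.17), Clspn (0.030), Dtl (0.10) and Ccne1 (0.0080). Without 1 array at a time, differences ranged from −0.066 to 0.16 for Mcm4, −0.017 to 0.11 for Orc5, −0.035 to 0.020 for Pole, −0.067 to 0.024 for Pold2, −0.062 to 0.017 for Rrm1, −0.19 to 0.013 for Tyms and −0.027 to 0.013 for Supt16. The cause was not tested. With 3 arrays a group, small differences and dim probe sets such as those of Tyms cannot be resolved.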
